A study of Mus musculus with 6 samples.

Results

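The mitochondrial carrier genes, the Slc25 family with the mitochondrial pyruvate carrier gene Mpc1, were compared between livers of wild-type mice (WT) and livers of mice labelled L-Pex5 knockout (KO). Members were the genes with a symbol of the form Slc25a and a digit, plus Ucp1 to Ucp3, Mpc1 and Mpc2, on probe sets that the array annotation ties to exactly 1 symbol. This gave 47 members of 18193 genes, measured by 97 of 34945 such probe sets, and the brightest probe set of a gene, by its mean level, stood for it. Mpc2, Ucp2, Slc25a21, Slc25a43 and Slc25a52 were not analysed here. RNA came from whole liver of 10-week-old males, 3 WT and 3 KO, with 1 Affymetrix array per liver, and the labels call the arrays biological replicates. The genotype fields read WT and L-Pex5 knockout, and both groups share the background given as mixed, Alb-Cre Tac:[Sw]fBR. Alb-Cre is a recombinase driven by albumin's promoter and made in hepatocytes, so the other cells of a liver would keep Pex5. Pex5 is the receptor that brings newly made enzymes into peroxisomes.

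The inner mitochondrial membrane lets few charged metabolites through, and the carriers of this family move them one by one, often in exchange for another metabolite. They bring ADP, phosphate, fuels and cofactors into the matrix and let ATP, citrate, aspartate and citrulline out. In liver they link the mitochondria to fatty acid oxidation, the urea cycle, gluconeogenesis and lipid synthesis. One member, Slc25a17, sits in the peroxisomal membrane.

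Levels are on the log2 scale, made by the authors with RMA. A difference is the KO mean minus the WT mean. Errors marked SD give the spread of 3 livers, and those after a difference of levels are the SE of the fit. Those after a difference of ratios are an SE from the spread of the ratios in each group, not from the fit. Adjusted p-values come from limma with Benjamini-Hochberg adjustment over all 18193 genes, and higher or lower means an adjusted p under 0.05. A level of 4.90, from olfactory receptor genes that liver should not express, was taken as background. Over all genes, the lowest correlation between arrays of the same group was 0.989, and the highest across groups was 0.976. The Pex5 probe set read 9.14, 8.88 and 9.11 in WT and 9.35, 9.19 and 9.13 in KO livers, and the groups overlapped (difference 0.18 ± 0.11, adjusted p = 0.262). Whether that probe set covers the deleted part of Pex5 is not given in the sources used here, so it does not check the labels. The summed level of 5 hepatocyte markers lay between 16.22 and 16.30 in WT and between 16.29 and 16.36 in KO livers, and 0 of the 5 passed the test.

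Of the 47 members, 12 were higher in KO livers (25.5%) and 8 lower (17%), against 14.2% and 9.75% of all genes tested. All genes include more dim ones. A filter on low values left 38 members, 11 higher and 7 lower, and 12042 genes, 21.8% higher and 13% lower. The 45 bacterial control probe sets read 0.44 lower in KO arrays, so centring on them raises every difference by that amount. After that centring the split of the 47 members was 31 higher and 3 lower. That centring moved the median difference of all genes from -0.05 to 0.39, and every difference below is on the scale deposited by the authors unless stated. The KO arrays lay wholly on one side of the WT arrays in 28 members (59.6%, 16 above and 12 below), against 44.8% of all genes. Of the 12 below, Slc25a18, Slc25a41 and Slc25a54 had every array below background. The median difference over the members was 0.07 and the range ran from -1.37 for Slc25a23 to 0.98 for Slc25a4. Only Slc25a23 differed by a factor of 2 or more. All 6 arrays were below background for Slc25a2, Slc25a18, Slc25a31, Slc25a41, Slc25a53, Slc25a54 and Ucp1. These 7 members have no measured direction.

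**Figure D1:**
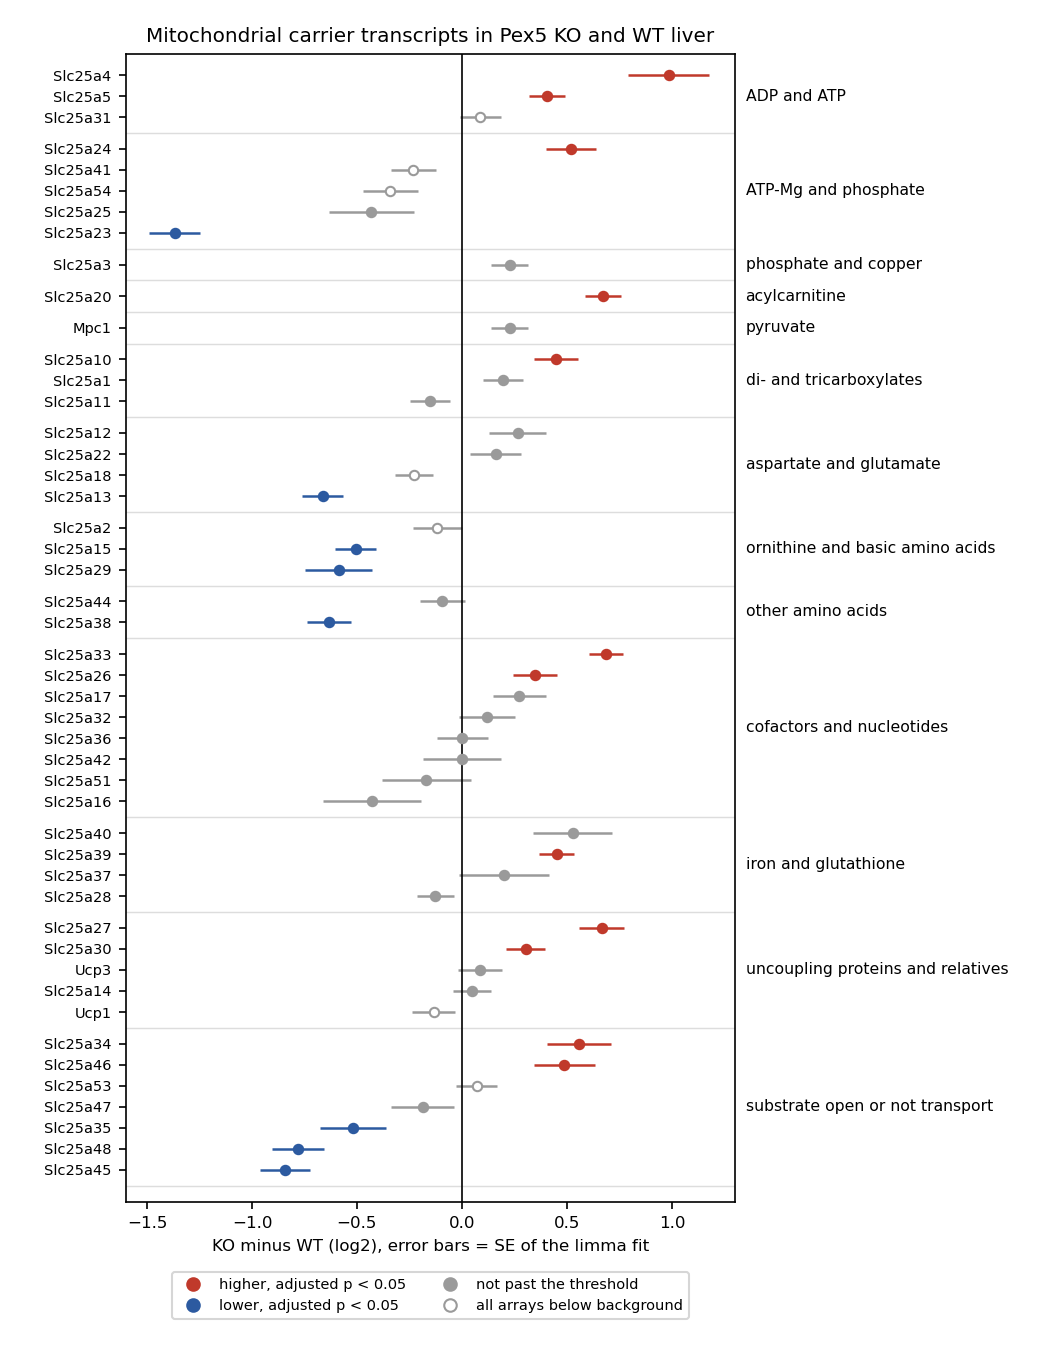
The KO minus WT difference of each of the 47 members on a log2 scale, grouped by substrate, with the SE of the limma fit over 3 WT and 3 KO livers. Red points (12 members) were higher and blue points (8 members) lower at an adjusted p under 0.05; grey points did not pass, and open points had all arrays below background. Centring on control probe sets moves all points 0.44 to the right, after which Slc25a23, Slc25a45 and Slc25a48 were lower and Slc25a13, Slc25a15, Slc25a29, Slc25a35 and Slc25a38 did not pass.

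Promoter sequences are shown for 3 members. Slc25a4 had the largest rise, Slc25a20 serves fatty acid oxidation, and Slc25a45 was the one member with a match to the first motif searched. The bases lie before the RefSeq start site in GRCm38.p6, 5' to 3' on the gene's strand, and capitals mark a motif match. Slc25a4 lies on the minus strand (chr8:46211063-46211312), and Slc25a20 (chr9:108661886-108662135) and Slc25a45 (chr19:5877572-5877800) on the plus strand. The Slc25a45 sequence stops 21 bases before its window's start site, where another transcript of the gene begins.
Slc25a4: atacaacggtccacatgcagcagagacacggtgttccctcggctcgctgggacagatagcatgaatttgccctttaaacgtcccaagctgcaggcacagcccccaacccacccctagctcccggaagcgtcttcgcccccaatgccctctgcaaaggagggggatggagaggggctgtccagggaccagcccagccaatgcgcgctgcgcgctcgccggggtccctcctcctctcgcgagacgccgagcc
Slc25a20: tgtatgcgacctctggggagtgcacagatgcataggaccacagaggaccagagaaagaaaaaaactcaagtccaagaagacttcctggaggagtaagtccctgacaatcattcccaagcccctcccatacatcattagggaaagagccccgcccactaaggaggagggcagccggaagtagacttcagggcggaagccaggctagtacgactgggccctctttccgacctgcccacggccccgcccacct
Slc25a45: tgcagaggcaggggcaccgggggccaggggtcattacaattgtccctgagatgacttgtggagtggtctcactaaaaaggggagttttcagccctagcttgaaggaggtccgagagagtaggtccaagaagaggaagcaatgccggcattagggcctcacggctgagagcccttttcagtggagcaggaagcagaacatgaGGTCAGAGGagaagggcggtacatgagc

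RefSeq windows of 300 bases, 250 before and 50 after a start site, were matched to 37 of the 47 members by symbol, giving 47 member windows among 32851 in all. GGTCANAGG, the core of the repeat bound by PPARalpha with RXR, was sought on both strands and found in 1.72% of all windows. It was in 1 member window, that of Slc25a45, at position -49 from the window's start site. TGCGCATGC, the core of the NRF1 site, was in 1.52% of all windows and in 1 member window, that of Slc25a31 at position -110. TCAAGGTCA, an element of estrogen-related receptors, and TGATGNAAT, an element of ATF4, were in 0.423% and 0.965% of all windows and in 0 of the 47 member windows. The PPARalpha and estrogen-related receptor motifs share the letters GGTCA and could overlap. The 250 bases before the start held a median of 58.4% G and C and 12 CpG sites in member windows, against 52.4% and 6 over all windows. The Slc25a4 promoter shown holds 18 CpG sites in 250 bases, the Slc25a20 promoter 8.

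The acylcarnitine carrier and all 4 measured enzymes of the carnitine shuttle were higher in KO livers. Slc25a20 exchanges acylcarnitines for free carnitine across the inner membrane, the step by which long-chain fatty acids reach beta-oxidation. Its level was 10.70, 10.72 and 10.84 in WT livers and 11.42, 11.42 and 11.43 in KO livers. All KO arrays lay above all WT arrays, with a KO spread of 0.01 (SD, n = 3), and the difference was 0.67 ± 0.09 (SE), or 1.59-fold (limma adjusted p = 0.00141). A second probe set gave 0.55.

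Among the shuttle enzymes, Cpt1a makes acylcarnitines at the outer membrane and Cpt2 turns them back into acyl-CoA in the matrix. Cpt1a read 10.91, 11.10 and 11.09 in WT and 11.58, 11.38 and 11.61 in KO livers (0.49 ± 0.11, adjusted p = 0.0137). Cpt2 read 10.87, 10.75 and 10.75 in WT and 11.60, 11.46 and 11.43 in KO livers (0.71 ± 0.09, adjusted p = 0.0015). The larger differences were those of the carnitine acyltransferases that act on shorter chains. Crat, the carnitine acetyltransferase, differed by 1.90 ± 0.12, or 3.74-fold (adjusted p = 4.64e-05). Crot, the carnitine octanoyltransferase of peroxisomes, differed by 1.13 ± 0.18, or 2.19-fold (adjusted p = 0.00385). With the mean of all probe sets of a gene, Cpt2, Crat and Crot were higher by 0.41, 0.76 and 0.57. Cpt1a did not pass then (adjusted p = 0.113), with its probe set of highest interquartile range (0.202), without KO replicate 1 (0.0603) or without KO replicate 3 (0.0517).

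Both ADP/ATP carriers above background were higher. These carriers exchange matrix ATP for cytosolic ADP, and Slc25a4 is the form known from heart and muscle, Slc25a5 the broadly expressed one. Slc25a4 had levels of 7.13, 6.40 and 6.82 in WT and 7.58, 7.99 and 7.73 in KO livers. The highest WT array was below the lowest KO array, although the WT arrays spread by 0.37 (SD, n = 3), and the difference was 0.98 ± 0.19, or 1.98-fold (limma adjusted p = 0.00877). With the mean of its probe sets it was 0.54 (adjusted p = 0.0168). Its other probe sets differed by 0.61, 0.55 and 0.00, the last at a mean level of 2.98, below background. The summed level of 5 skeletal muscle markers was 6.64 to 6.93 in WT and 6.48 to 6.62 in KO livers, and 0 of the 5 passed. Of these 5 markers, 4 were below background on every array, so their sum is a weak measure of muscle tissue.

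Slc25a5 had levels of 12.78, 12.76 and 12.77 in WT and 13.20, 13.22 and 13.10 in KO livers. The groups did not overlap, and the difference was 0.40 ± 0.08, or 1.32-fold (adjusted p = 0.012). Each of its 8 probe sets gave a positive difference, from 0.31 to 0.64. The one used is of a design that can also bind related transcripts. Without KO replicate 1 or without KO replicate 2, the adjusted p passed 0.05, with a highest value of 0.0554. Slc25a31, the germ cell form, was below background on every array.

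The ATP-Mg/phosphate carriers moved in both directions. They exchange ATP-Mg for phosphate and so set the adenine nucleotide content of the matrix, and the forms with calcium-binding domains respond to cytosolic calcium. Slc25a23 read 9.25, 9.35 and 9.001 in WT livers and 7.98, 7.78 and 7.74 in KO livers. Every KO array was more than 1 log2 unit below every WT array, and the difference was -1.37 ± 0.12, a level 2.58-fold lower (adjusted p = 0.000241). Slc25a24 read 5.21, 5.20 and 5.18 in WT and 5.47, 5.87 and 5.80 in KO livers (0.52 ± 0.12, adjusted p = 0.0165). Its KO arrays were all above its WT arrays, close to the background level. Without KO replicate 2 or 3, and with the mean of its probe sets, it did not pass, with an adjusted p of up to 0.13. That mean includes a second probe set at a mean level of 3.24, below background. Slc25a25 read 9.43, 8.83 and 8.98 in WT and 8.9999, 8.33 and 8.61 in KO livers, and the groups overlapped (-0.43 ± 0.20, adjusted p = 0.161).

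Phosphate and pyruvate carriers differed by less than the threshold asks. Slc25a3, the carrier that supplies phosphate for ATP synthesis and copper for cytochrome oxidase, read 12.37, 12.42 and 12.44 in WT and 12.64, 12.71 and 12.56 in KO livers (0.23 ± 0.09, adjusted p = 0.0954). Mpc1, a subunit of the pyruvate carrier, read 11.66, 11.57 and 11.64 in WT and 11.93, 11.83 and 11.79 in KO livers (0.23 ± 0.09, adjusted p = 0.0978). In both, the KO arrays lay above the WT arrays without passing the test. With trend and robust eBayes both passed (adjusted p = 0.028 for Slc25a3 and 0.0381 for Mpc1). Of 4 matrix genes that use pyruvate, Dlat, a subunit of pyruvate dehydrogenase, was higher (0.45 ± 0.13, adjusted p = 0.0381) and the other 3 did not pass. Dlat lost its call under 5 alternatives, with an adjusted p of up to 0.131 without KO replicate 1.

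Of the 3 carriers of di- and tricarboxylates, the dicarboxylate carrier was higher and the other two did not pass. Slc25a10 exchanges malate or succinate for phosphate. It read 10.33, 10.28 and 10.48 in WT and 10.85, 10.91 and 10.67 in KO livers. The groups were apart, and the difference was 0.45 ± 0.10, or 1.36-fold (adjusted p = 0.0186). A second probe set gave 0.29, and without WT replicate 2, KO replicate 1 or KO replicate 2 the adjusted p rose to as much as 0.0781.

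Slc25a1, which exports citrate for cytosolic acetyl-CoA, read 11.13, 11.17 and 11.13 in WT and 11.41, 11.41 and 11.19 in KO livers (0.19 ± 0.10, adjusted p = 0.177). Slc25a11, which exchanges oxoglutarate for malate, read 9.63, 9.59 and 9.59 in WT and 9.55, 9.50 and 9.31 in KO livers (-0.15 ± 0.10, adjusted p = 0.279). Neither pair of groups overlapped, and KO replicate 3 was the lowest KO array in both. Of 3 enzymes around citrate export, citrate synthase Cs (0.73 ± 0.11, adjusted p = 0.00322) and malic enzyme Me1 (1.58 ± 0.26, adjusted p = 0.00421) were higher. ATP citrate lyase Acly differed by -0.19 ± 0.20 (adjusted p = 0.514), but its probe set of highest interquartile range was lower, at -0.73 (adjusted p = 0.0045).

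The aspartate/glutamate carrier of liver was lower, and its counterpart of muscle and brain did not pass. Slc25a13, called citrin, exports aspartate made in the matrix, which feeds both the urea cycle and the malate-aspartate shuttle. It read 11.36, 11.47 and 11.29 in WT and 10.81, 10.70 and 10.62 in KO livers. The groups were apart by far more than their spread of 0.09 and 0.10 (SD, n = 3), and the difference was -0.66 ± 0.10, a level 1.58-fold lower (limma adjusted p = 0.00249). Slc25a12, called aralar, read 7.18, 7.32 and 6.84 in WT and 7.47, 7.27 and 7.39 in KO livers, with overlap (0.27 ± 0.14, adjusted p = 0.187). The log2 ratio of Slc25a12 to Slc25a13 within an array was 0.93 ± 0.11 higher in KO livers, with KO arrays all above WT arrays (exact two-sided permutation p = 0.1, the smallest that 3 against 3 allows). Slc25a22, a glutamate carrier, differed by 0.16 ± 0.12 (adjusted p = 0.369).

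The 4 soluble enzymes of the malate-aspartate shuttle did not move together. Mdh2, the matrix malate dehydrogenase, was higher by 1.06 ± 0.10, or 2.09-fold (adjusted p = 0.000247). Mdh1, its cytosolic counterpart, was lower (-0.35 ± 0.09, adjusted p = 0.0271), but reached 0.092 after centring on control probe sets and did not pass without WT replicate 1 or any 1 of the KO arrays. Got1, the cytosolic aspartate aminotransferase, read 12.04, 11.21 and 11.72 in WT and 11.06, 11.14 and 10.11 in KO livers (-0.89 ± 0.30, adjusted p = 0.0681). Its KO arrays lay below its WT arrays but spread widely, and without WT replicate 2 it passed (adjusted p = 0.046). Got2, the matrix form, differed by -0.08 ± 0.10 (adjusted p = 0.584). In the glycerol phosphate shuttle, which also carries reducing equivalents, the cytosolic enzyme Gpd1 was lower (-0.54 ± 0.10, adjusted p = 0.00591; -0.10 and not called after centring on control probe sets). Both measured matrix enzymes of glutamate use were higher, Gpt2 by 0.94 ± 0.21 (adjusted p = 0.0146) and Glud1 by 0.43 ± 0.13 (adjusted p = 0.0472). Gpt2 did not pass without KO replicate 2 (adjusted p = 0.0544) or 3 (0.0534), and Glud1 lost its call under 7 alternatives, with an adjusted p of up to 0.144.

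The 2 carriers of ornithine and basic amino acids above background were both lower. Slc25a15 brings ornithine into the matrix in exchange for citrulline, a step of the urea cycle. It read 12.13, 12.30 and 12.12 in WT and 11.57, 11.73 and 11.73 in KO livers. KO arrays were all below WT arrays, and the difference was -0.51 ± 0.10, a level 1.42-fold lower (adjusted p = 0.00849), with -0.67 on its second probe set. Slc25a29, which moves lysine and arginine, read 7.72, 7.77 and 8.29 in WT and 7.25, 7.28 and 7.48 in KO livers. The groups were apart, with WT replicate 3 well above the rest (-0.59 ± 0.16, adjusted p = 0.0334), and all 5 of its probe sets were lower, from -0.41 to -0.61. The call of Slc25a29 was lost without any 1 of the KO arrays.

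Of 7 urea cycle and ornithine enzymes, 4 were lower and 0 higher. Over all 26 partner enzymes listed beside the carriers, 10 were higher (38.5%) and 6 lower (23.1%), against 14.2% and 9.75% of all genes. Otc, which makes citrulline from ornithine in the matrix, read 12.62, 12.70 and 12.65 in WT and 10.64, 10.53 and 10.72 in KO livers. That is a difference of -2.03 ± 0.09, a level 4.08-fold lower (adjusted p = 1.11e-05). Asl, the argininosuccinate lyase, differed by -0.91 ± 0.08 (adjusted p = 0.000278). Oat, the ornithine aminotransferase, differed by -0.64 ± 0.14 (adjusted p = 0.0162), and Arg1, the arginase, by -0.61 ± 0.13 (adjusted p = 0.0113). The other 3, Cps1, Ass1 and Nags, did not pass. Cps1 had all KO arrays above all WT arrays (0.14 ± 0.09, limma adjusted p = 0.27). Ass1 (0.19 ± 0.25) and Nags (-0.21 ± 0.12) overlapped between groups. The Ass1 probe set read 7.27 to 8.24, dimmer than those of the other enzymes listed, with a WT spread of 0.48 (SD, n = 3). It is therefore a weak measure of Ass1. After centring on control probe sets, Otc (-1.59) and Asl (-0.47) were lower, and Oat (-0.19) and Arg1 (-0.17) did not pass.

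**Figure D2:**
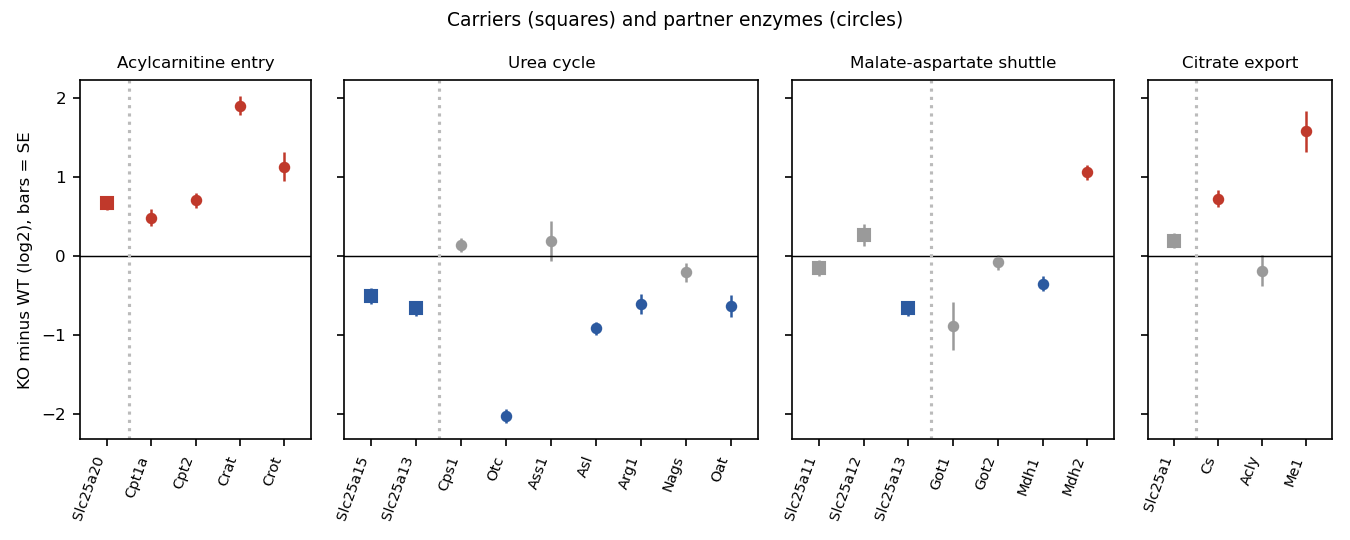
KO minus WT differences (log2, bars are the SE over 3 WT and 3 KO livers) of carriers (squares) beside the enzymes that work with them (circles) in 4 pathways. Red is higher and blue lower at an adjusted p under 0.05, and grey did not pass. The carnitine shuttle panel is all red, the urea cycle panel holds 6 blue symbols and 0 red ones, and the malate-aspartate panel holds both colours; centring on control probe sets raises every symbol by 0.44, after which Otc and Asl are lower and the other 4 blue symbols of the urea cycle do not pass.

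Of the carriers of other amino acids, Slc25a38 was lower. It imports glycine for haem synthesis. It read 8.45, 8.34 and 8.52 in WT and 7.86, 7.65 and 7.89 in KO livers, with no overlap (-0.64 ± 0.10, 1.55-fold lower, adjusted p = 0.00416). The summed level of 3 erythroid markers was 8.0001 to 10.11 in WT and 7.38 to 8.84 in KO livers. Of the 3, Rhag and Hba-a1 were below background on every array, so the sum follows Alas2 and is not a second reading. Alas2, the haem synthesis enzyme of red cells, read 8.64, 7.90 and 10.09 in WT and 7.34, 7.22 and 8.74 in KO livers (-1.11 ± 0.58, adjusted p = 0.196). Within each group, Slc25a38 and Alas2 were both highest in replicate 3 and lowest in replicate 2, and the part of red cells in the Slc25a38 difference was not tested. In whole liver, fewer cells of a type and less RNA per cell cannot be told apart. Slc25a44, which brings branched-chain amino acids into mitochondria, differed by -0.09 ± 0.11 (adjusted p = 0.545). Its 2 other probe sets, at mean levels of 8.19 and 6.46, had KO below WT arrays and differed by -0.23 and -0.33.

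Among 8 carriers of cofactors and nucleotides, 2 were higher and 0 lower. Slc25a33 imports pyrimidine nucleotides into the matrix. It read 9.24, 9.20 and 9.23 in WT and 9.91, 9.89 and 9.93 in KO livers. Each group spread by only 0.02 (SD, n = 3), and the difference was 0.69 ± 0.08, or 1.61-fold (adjusted p = 0.000951). Its relative Slc25a36 differed by 0.00 ± 0.12 (adjusted p = 0.994), and the log2 ratio of Slc25a33 to Slc25a36 was 0.68 ± 0.14 higher in KO livers (exact permutation p = 0.1). Slc25a26, which imports S-adenosylmethionine, the methyl donor, read 6.92, 6.69 and 6.69 in WT and 7.22, 7.03 and 7.08 in KO livers. The groups were apart, but the difference was close to the threshold (0.35 ± 0.11, adjusted p = 0.0477), and 7 alternatives ended the call, 5 of them by leaving out an array.

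Slc25a17, the member of the peroxisomal membrane that carries CoA and other nucleotide cofactors, did not pass the test. It read 9.23, 9.30 and 8.97 in WT and 9.51, 9.54 and 9.26 in KO livers, and KO replicate 3 fell among the WT arrays (0.27 ± 0.13, adjusted p = 0.149). Its second probe set, at a mean level of 4.59 and so below background, differed by -0.30. The remaining cofactor carriers overlapped between groups. Slc25a32, a folate and FAD carrier, differed by 0.12 ± 0.13 (adjusted p = 0.543), and Slc25a51, which imports NAD, by -0.17 ± 0.21 (adjusted p = 0.587). The Slc25a51 probe set of highest interquartile range was lower, at -0.50 (adjusted p = 0.0243). Slc25a16 differed by -0.43 ± 0.23 (adjusted p = 0.215). Slc25a42, a CoA carrier, had a mean difference of 0.00 ± 0.19.

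Of 4 carriers of iron and glutathione, 1 was higher. Slc25a39 and Slc25a40 import glutathione into mitochondria. Slc25a39 read 13.39, 13.36 and 13.35 in WT and 13.78, 13.88 and 13.79 in KO livers. WT arrays spread by 0.02 (SD, n = 3), the groups did not overlap, and the difference was 0.45 ± 0.08, or 1.37-fold (adjusted p = 0.00748). All 5 of its probe sets had KO above WT arrays, by 0.38 to 0.75, the last on the probe set of highest interquartile range. Slc25a40 read 6.32, 6.23 and 5.74 in WT and 6.92, 6.57 and 6.37 in KO livers. Its KO arrays were also all above its WT arrays, without passing (0.53 ± 0.19, adjusted p = 0.0778). The ratio of Slc25a39 to Slc25a40 differed by -0.08 ± 0.24 (exact permutation p = 0.8).

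The iron importers, called mitoferrins, did not pass. Slc25a37, the form needed in developing red cells, read 8.59, 8.57 and 8.23 in WT and 8.38, 8.44 and 9.17 in KO livers. KO replicate 3 stood above the other 5 arrays, and without it the difference was -0.05 in place of 0.20 ± 0.21 (adjusted p = 0.521). Slc25a28, the form of other tissues, read 7.93, 7.88 and 7.99 in WT and 7.73, 7.89 and 7.79 in KO livers, with overlap (-0.13 ± 0.09, adjusted p = 0.332).

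Of 5 uncoupling proteins and relatives, 2 were higher at low or modest fold. Slc25a27 read 4.43, 4.38 and 4.70 in WT and 5.18, 5.16 and 5.17 in KO livers. All WT arrays were below background and all KO arrays above it, so its level was at least 1.2-fold higher (adjusted p = 0.0038). Its 3 other probe sets differed by 0.05 to 0.13 at mean levels of 2.89 to 4.03, below background. The mean of its probe sets, which includes them, did not pass (adjusted p = 0.0796). Slc25a30 read 8.72, 8.63 and 8.61 in WT and 9.05, 8.93 and 8.88 in KO livers. The groups did not overlap, and the difference was 0.30 ± 0.09, or 1.23-fold (adjusted p = 0.047). It lost its call in 10 of 15 alternatives. Slc25a14 (0.05 ± 0.09, adjusted p = 0.713) and Ucp3 (0.09 ± 0.11, adjusted p = 0.575) did not pass. Ucp1, the uncoupling protein of brown fat, was below background on every array.

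Members listed here as having an open substrate, or as acting other than by transport, held 5 of the 20 changed genes, 3 of them lower. The listing does not mean that no substrate has been reported for them. Slc25a45 read 9.53, 9.70 and 9.29 in WT and 8.70, 8.61 and 8.67 in KO livers. KO arrays were all below WT arrays, and the difference was -0.84 ± 0.12, a level 1.79-fold lower (adjusted p = 0.00212). This is the gene whose promoter, shown above, holds the match in capitals. Slc25a48 read 6.37, 6.37 and 6.52 in WT and 5.89, 5.50 and 5.54 in KO livers (-0.78 ± 0.12, 1.72-fold lower, adjusted p = 0.00352). Its 2 other probe sets also had KO below WT arrays, by 0.89 and 0.27 on the log2 scale, but both were dim. The first had every KO array below background. The second had every array below background, so it has no measured direction. Slc25a47, a carrier found mostly in liver, read 10.78, 10.51 and 11.02 in WT and 10.68, 10.37 and 10.70 in KO livers, with overlap (-0.19 ± 0.15, adjusted p = 0.392).

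Slc25a34 and Slc25a35, which are close relatives, were called in opposite directions. Slc25a34 read 6.53, 6.62 and 6.98 in WT and 7.51, 7.20 and 7.09 in KO livers (0.56 ± 0.15, adjusted p = 0.0349), and 6 alternatives ended its call. Slc25a35 read 5.24, 4.84 and 5.30 in WT and 4.81, 4.37 and 4.63 in KO livers. All its KO arrays were below background, so its level was at least 1.17-fold lower (adjusted p = 0.0472), and it lost its call in 9 of 14 alternatives. The log2 ratio of Slc25a34 to Slc25a35 was 1.08 ± 0.18 higher in KO livers, with the KO value of Slc25a35 resting on dim arrays (exact permutation p = 0.1). Slc25a46, an outer membrane member that acts in mitochondrial dynamics, read 9.33, 9.47 and 8.91 in WT and 9.75, 9.69 and 9.73 in KO livers. The groups were apart, although the WT arrays spread far more than the KO arrays (0.49 ± 0.15, adjusted p = 0.0442). It lost its call under 7 alternatives, and without WT replicate 3 the difference was 0.32 (adjusted p = 0.0477).

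**Figure D3:**
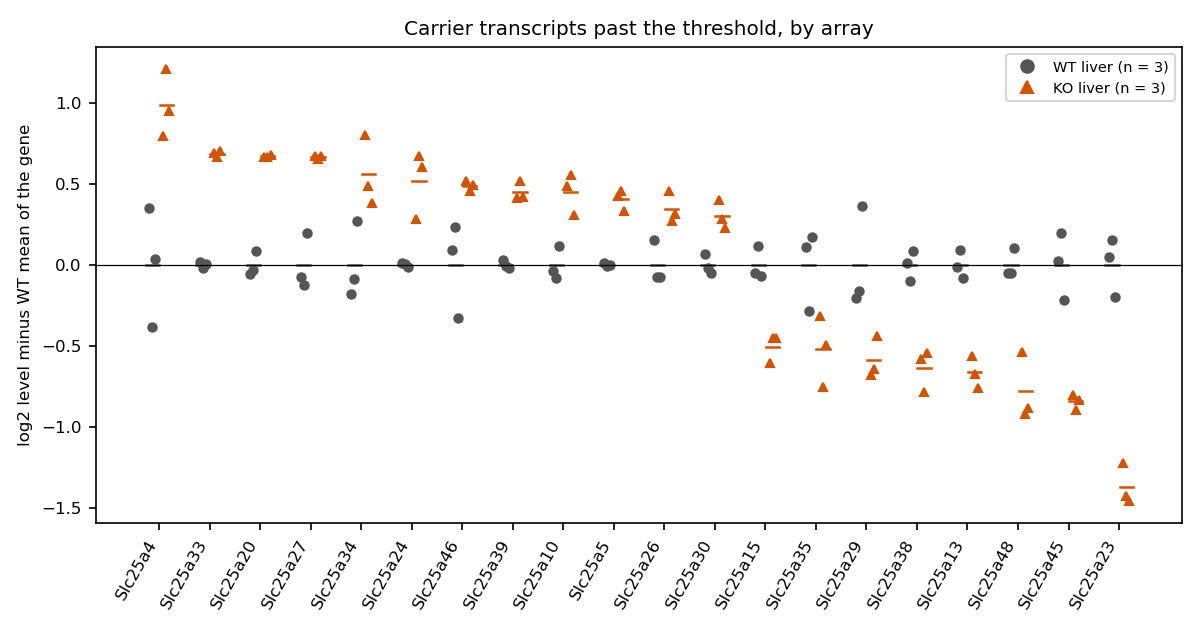
Levels of the 20 members past the threshold in each of 3 WT (circles) and 3 KO livers (triangles), as log2 differences from the gene's WT mean, with short bars at the group means. In all 20 members the KO arrays lie on one side of the WT arrays; centring on control probe sets turns the sign of none of the 20.

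Ratios between relatives within an array do not depend on how the arrays are centred. Of 17 pairs listed, 15 had both members. In 12 of the 15 the KO ratios lay wholly on one side of the WT ratios (exact two-sided permutation p = 0.1, adjusted over the 15 pairs 0.125). Of these 12, 3 had a member below background in at least 1 group, namely Slc25a18 to Slc25a22, Slc25a15 to Slc25a2 and Slc25a34 to Slc25a35. The share among other gene pairs was not measured, and 44.8% of single genes had groups that did not overlap. So 0 of 15 pairs could pass the threshold, since 3 against 3 arrays cannot go below 0.1. The ratio of Slc25a10 to Slc25a11 was 0.60 ± 0.07 higher in KO livers, and that of Slc25a23 to Slc25a25 differed by -0.94 ± 0.25. The ratio of Slc25a24 to Slc25a25 was 0.95 ± 0.36 higher. For Slc25a4 to Slc25a5 the value was 0.58 ± 0.24 with the brightest probe sets and 0.10 with the mean of all probe sets, so an unequal rise of both ADP/ATP carriers depends on the probe sets.

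Other transporters and channels of the mitochondrial membranes gave 5 higher (25%) and 4 lower (20%) among 20 measured. The shares were 14.2% and 9.75% over all genes, and 21.8% and 13% over the genes left by the filter on low values. The higher transporters were 3 without WT replicate 2 or KO replicate 3, 2 without KO replicate 2 and 1 without KO replicate 1. Centring on control probe sets gave 14 higher and 1 lower, Sfxn5. In the outer membrane, the metabolite channels Vdac3 (0.36 ± 0.08, adjusted p = 0.0165) and Vdac2 (0.35 ± 0.09, adjusted p = 0.0314) and the cholesterol-binding protein Tspo (0.47 ± 0.12, adjusted p = 0.0217) were higher. Mtch1, which inserts proteins into that membrane, was lower (-0.43 ± 0.13, adjusted p = 0.0453). It lost that call under 7 alternatives that kept its sign, 5 of them leaving out an array, with an adjusted p of up to 0.156 without KO replicate 2. Micu2, a regulator of the calcium uniporter, was higher by 0.82 ± 0.12 (adjusted p = 0.00226). The sideroflexins split, with Sfxn1, a serine carrier, higher (0.46 ± 0.12, adjusted p = 0.0278) and Sfxn2 lower (-0.60 ± 0.12, adjusted p = 0.00913). With the mean of its probe sets Sfxn2 was at -0.35 and did not pass (adjusted p = 0.0709). Sfxn5 was lower by more, at -1.36 ± 0.10 (adjusted p = 8.86e-05), and by -0.85 with the mean of its probe sets. Abcb10, an inner membrane ABC transporter, was lower (-0.68 ± 0.10, adjusted p = 0.00241).

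Markers of cycling cells were higher in 5 of 5, with a summed level of 7.34 to 7.51 in WT and 8.26 to 8.72 in KO livers. Stellate cell markers had 2 of 6 lower, with sums of 12.04 to 12.11 and 11.67 to 11.88, and endothelial markers 1 higher and 2 lower of 6, with sums of 10.90 to 11.16 and 10.55 to 10.74. Kupffer cell markers had 0 of 7 called, with sums of 11.10 to 12.22 and 11.53 to 11.81, and lymphocyte markers 0 of 6, with sums of 8.07 to 9.01 and 8.38 to 8.90. Cholangiocyte markers had 1 of 5 lower, with sums of 7.24 to 7.51 and 7.04 to 7.16, neutrophil markers 1 of 4 lower and adipocyte markers 1 of 4 higher. Krt19 and Ngp, the cholangiocyte and neutrophil calls, had every KO array below background. Lyve1, the higher endothelial call, and the cycling markers Top2a and Birc5 had every WT array below background. The other 5 endothelial markers had negative differences. Cidec, the adipocyte call, had every WT array below background and a KO mean of 4.87, also below it. The other 3 adipocyte markers had KO arrays below WT arrays, Adipoq and Lep with every array below background. Over all 56 markers, 7 were higher (12.5%) and 6 lower (10.7%), against 14.2% and 9.75% of all genes. The part of these cell types in the carrier differences was not tested.

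Of the 20 changed members, 7 passed under every alternative tried, namely Slc25a4, Slc25a20, Slc25a23, Slc25a33, Slc25a39, Slc25a45 and Slc25a48. The other 13 failed under at least 1 alternative, and 0 of the 20 changed sign under any. Without KO replicate 1 there were 6 higher members and without KO replicate 2 there were 5. Centred on the control probe sets, Slc25a23 (-0.93), Slc25a45 (-0.40) and Slc25a48 (-0.34) were lower, and the other 5 lower members did not pass.

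**Figure D4:**
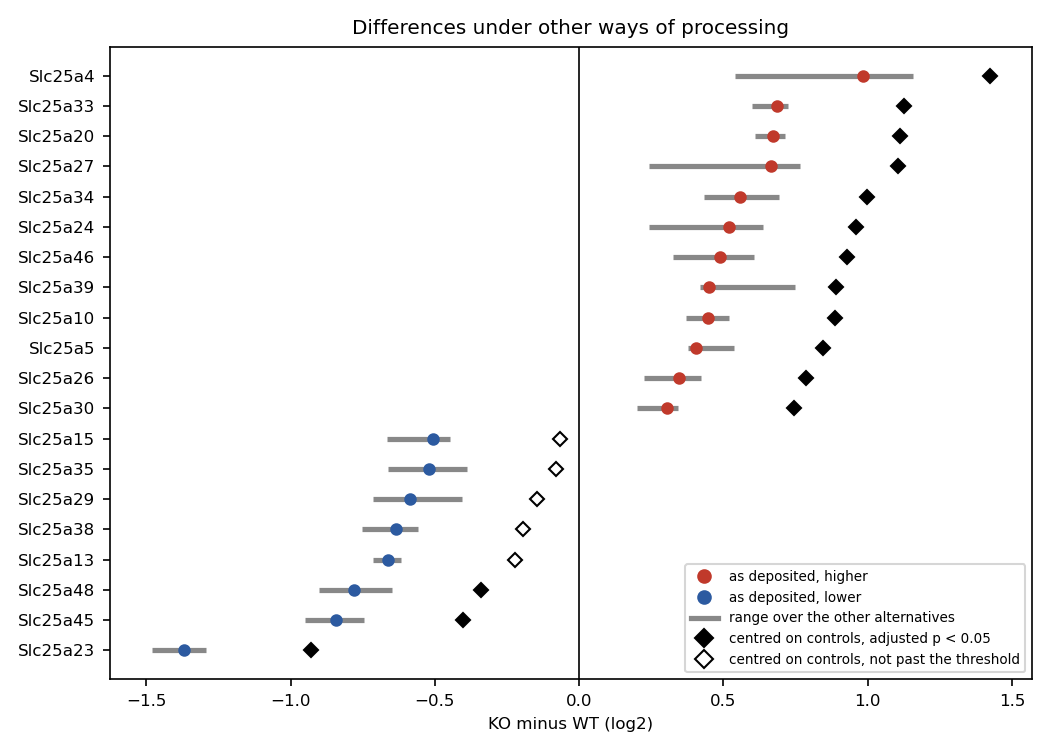
KO minus WT differences (log2) of the 20 changed members as deposited (red higher, blue lower), their range over the other alternatives (grey lines), and their value after centring on 45 bacterial control probe sets (diamonds, filled where the adjusted p was under 0.05). The diamonds sit 0.44 to the right of each point, and 5 of the 8 lower members have open diamonds.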

How the data were processed

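The authors used RMA and deposited 1 log2 level for each probe set and array, per the submitters' processing notes; that they are log2 was read from their range, 2.15 to 14.9. RMA draws the arrays towards one distribution, so a shift shared by most transcripts would be removed. The array annotation of 2016 gives 34945 of 45101 probe sets 1 symbol, 932 several, and 9160 are not listed in it; 64 are controls. Symbols were checked against GRCm38.p6, which changed 0, and 204 probe sets had no match. The test was limma's, version 3.58.1 under R 4.3.3 (lmFit and eBayes, group as the factor, two-sided, no filter, threshold 0.05). Background is the 95th percentile of the mean levels of 39 olfactory receptor genes, and a fold against a group wholly below it is a lower bound with that group set to it.

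The members and lists were chosen with earlier results of these data known. Every member is named; of partner genes and other transporters, up to 4 past the threshold per list. Alternatives were a replicate block, quantile normalization, centring on the array median or on control probe sets, a filter on low values, other probe set rules, trend and robust eBayes, array weights, a stricter threshold and leaving out each array. The replicate numbers were taken not to pair the arrays. On simulated data of 18193 genes, the fit found 29.9% of 67 genes shifted by 0.5 log2 units, 74.6% of 67 shifted by 1 and 100% of 66 shifted by 2. Of its calls, 2.16% were false. Far fewer genes were shifted there than the 4363 called in these data, so those rates do not give the sensitivity or the false share here. The number of arrays limits the precision, and the p-values measure only the spread between these arrays.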

Additional observations from a re-analysis of the deposited data

How the results depend on the processing

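Against 12 higher and 8 lower members, centring on control probe sets gave 31 and 3, and for partner genes 16 and 2 and for other transporters 14 and 1 in place of 10 and 6 and 5 and 4. An adjusted p under 0.01 left 5 higher members. Leaving out 1 array gave 5 to 10 higher members, lowest without KO replicate 2, and 1 to 4 higher other transporters, lowest without KO replicate 1. With the replicate number as a block, 10 members were higher and 9 lower; Slc25a25 (adjusted p = 0.0243), Slc25a40 (0.0188) and the red cell gene Alas2 (0.0061) passed with it, and Slc25a30, Slc25a34, Slc25a46 and Vdac2 did not. Deviations of same-numbered arrays correlated at 0.105, -0.018 and 0.105, and 3 of 6 arrays correlated best with their own number, so the numbers were not used to pair them. Of the members without a call, 21 passed under some alternative, 16 of them with the sign of their reported difference and 5 with the opposite sign, namely Slc25a2, Slc25a11, Slc25a28, Slc25a44 and Ucp1 after centring on control probe sets.

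Sign changes occurred in members without a call, and in Mdh1 (0.092), Mtch1 (0.0095), Got2 (0.36) and Acly (0.25) after centring on control probe sets. The same centring gave Slc25a18 0.21, Slc25a41 0.21, Slc25a54 0.10, Slc25a25 0.0090, Slc25a42 0.44, Slc25a51 0.27, Slc25a16 0.011, Slc25a11 0.29, Slc25a28 0.31, Slc25a2 0.32, Slc25a44 0.35, Slc25a47 0.25 and Ucp1 0.31. Averaging probe sets gave Slc25a17 -0.013 and Ucp3 -0.031, and the probe set of highest interquartile range gave Slc25a32 -0.088 and Ucp3 -0.15. Quantile normalization gave Slc25a36 -0.022 and Slc25a14 -0.055, array weights Slc25a36 -0.091 and array medians Slc25a42 0.039. Leaving out 1 array gave Slc25a36 -0.084 to 0.11, Slc25a42 -0.22 to 0.16, Slc25a51 -0.34 to 0.083 and Slc25a37 -0.054 to 0.34. The cause was not tested.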
